A study of Mus musculus with 10 samples.

Results

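The small subunit of the cytoplasmic ribosome carries a fixed set of proteins, and the genes for these proteins are described here in ribosome-associated RNA from the mouse ventral tegmental area (VTA), a midbrain region that holds dopaminergic neurons. The genes were taken by name: Rps followed by a number from 2 to 29, with an optional a or x, together with Rpsa, Fau, Rps15a and Rps27a, leaving out ribosomal S6 kinases, pseudogenes, predicted genes and paralogues ending in l. Of 56691 genes in the count table, 31 matched, and each of the 31 had at least 10 counts in 5 or more libraries, as did 18656 genes in all. The name rule left out Rps3a1 and Rack1, which also encode proteins of the small subunit, and these are given below beside the 31. The rule uses names and counts only, but the 31 genes were chosen with earlier results of these data known. The animals were male C57BL/6 mice labelled WT, 5 libraries came from controls without restraint and 5 from mice given 30 min of acute restraint, which confines the animal for a short time. In both groups the dopaminergic neurons expressed a construct labelled NBL10-HA, by which RNA on ribosomes was enriched. The promoter or virus behind the construct and the age of the mice are not given in the sources used here, and the labels name each sample as a neuronal cell of the VTA.

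The small subunit binds the messenger RNA (mRNA), scans for the start codon and reads the codons in its decoding centre, while the large subunit joins the amino acids. Its proteins sit in a head and a body, and messenger RNA passes through a channel between them. Nearly all of these genes are housekeeping genes, and their mRNAs begin with a stretch of pyrimidines (C or T in the gene) at the 5′ end, the TOP element, through which the TOR pathway, a growth and nutrient signal, controls how many ribosomes they occupy. In neurons these mRNAs are also found in axons and dendrites. Because the libraries hold RNA bound to ribosomes, a level reflects both how much mRNA there was and how much of it was on tagged ribosomes.

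The libraries held 56082358 to 86584968 counts, and values are given as CPM, the share of a library's counts scaled to a common total, after TMM normalization, which aligns libraries on genes of average change. Marker genes for dopaminergic neurons (12 genes, Th and Slc6a3 among them) were measured in every library, with summed levels of 1964 to 2689 CPM in controls and 2187 to 3033 CPM after restraint. The 10 astrocyte markers summed to 4973 to 5892 and 5874 to 7108 CPM, so RNA of other cells was present in these libraries. The 10 oligodendrocyte markers summed to 1632 to 1983 and 1551 to 2158 CPM, the 6 markers of GABA and glutamate neurons to 1308 to 1636 and 1327 to 1616 CPM, and the microglial and vascular markers to at most 42.5 CPM in any library. No marker was at 0 in all libraries, and the part of these cell types in the results below was not tested. In such bulk RNA, fewer cells of a type and less RNA per cell cannot be told apart. Restraint 1 stood apart from the rest of its group, with a first principal component score of 92.1 against -15.8 to 4.08 for the other restraint libraries. Nothing in the labels says that the libraries came from separate animals, so p-values measure the spread between libraries, which may be partly technical.

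The start of the genes was read in the RefSeq promoter windows of GRCm38.p6, which run from 250 bases before to 50 bases after the annotated start and hold 23 of the 31 genes. These coordinates belong to another build than the deposited ones and were not combined with them. A run of at least 8 pyrimidines on the sense strand was searched between 20 bases before the start and the end of the window. It was present in any window of 17 of the 23 genes (73.9%), against 28.5% of all 27025 genes with windows. The run is shown for 3 genes whose response to restraint, given below, lay near the median of the 31. It is also shown for 4 whose log2 fold change lay near 0, since the same kind of sequence stands at both. Of these 4, Rps10 had few counts (51 to 148 per library) and a value of -0.08 ± 0.26 (SE), so whether it responded is uncertain. Capitals mark the pyrimidine run. The first 3 genes had log2 fold changes of -0.45, -0.46 and -0.41, and the values of the last 4 lay between -0.08 and 0.11.
Fau, chr19:6057936-6057965, plus strand: cgcccccaCTTCTTCCTCTTTCTTgactcc
Rps27, chr3:90213629-90213658, minus strand: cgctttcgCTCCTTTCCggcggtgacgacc
Rps18, chr17:33955646-33955675, minus strand: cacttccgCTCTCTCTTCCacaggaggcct
Rps10, chr17:27635226-27635255, minus strand: cgcgcacgCCCCTTCCTTTCCagcctccgc
Rps7, chr12:28635910-28635939, minus strand: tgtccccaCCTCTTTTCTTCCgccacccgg
Rps26, chr10:128626482-128626511, minus strand: ccgccggaTCCTCTTTCgagtcttggctcc
Rps6, chr4:86857347-86857376, minus strand: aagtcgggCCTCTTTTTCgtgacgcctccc
The run was 16 bases long in Fau and 9 to 13 bases in the other 6 genes. It began 22 bases after the annotated start in Rps7 and within 3 bases of that start in the other 6 genes shown. Among the 17 genes with a run, the counted part began from 20 bases before the annotated start (Rps25) to 40 bases after it (Rps2). In Rps25 this is where the search began, and its pyrimidines continued further upstream. A counted run is therefore not always at the 5′ end. The 6 genes without a run of at least 8 pyrimidines were Rps13, Rps16, Rps3, Rps28, Rps4x and Rpsa. Their log2 fold changes ran from -0.61 in Rps13 to 0.12 in Rpsa, and those of the 17 with one from -0.67 in Rps21 to 0.12 in Rps24. Other motifs were searched on both strands of the whole window, and a gene was counted if any of its windows held the motif. CCGGAAG, an ETS-type sequence, was found in 9 of 23 genes (39.1% against 9.93% of all genes) and AAGATGG in 6 (26.1% against 7.28%). TCTCGCGA was found in 4 (17.4% against 1.13%) and the TATA sequence TATAAA in 2 (8.7% against 15.7%). A match of letters is not a bound site. The motifs, the length of the run and the window shown were chosen with the sequences or values in view.

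Levels of different genes were compared per kilobase (kb) of the deposited exon length. In controls, Rps15, whose protein reaches towards the decoding site, had the highest level, 409 ± 33.0 CPM per kb (SD, n = 5), and Fau, made as a fusion with a ubiquitin-like protein, was next with 296 ± 34.9. Rps6, the protein phosphorylated by S6 kinases, had 195 ± 28.0 CPM per kb and Rps23, a protein of the decoding centre, 193 ± 23.1, and these neighbours did not differ beyond their spread. The median member had 107 CPM per kb, and Rps19 with 20.6 ± 2.62 and Rps20 with 24.8 ± 2.31 CPM per kb stood low. Rps10 stood alone at 0.609 ± 0.121 CPM per kb, with 51 to 148 counts per library.

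The order rested on the length used, since deposited exon length joins all annotated transcripts. Per kb of the median coding transcript, the median member had 260.5 CPM per kb, and Rps24, the 24th per exon length, became the highest. Rps10 was the lowest either way. The genes are short: their median coding transcript was 678 bases, against 2243 bases over all genes tested.

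**Figure D1:**
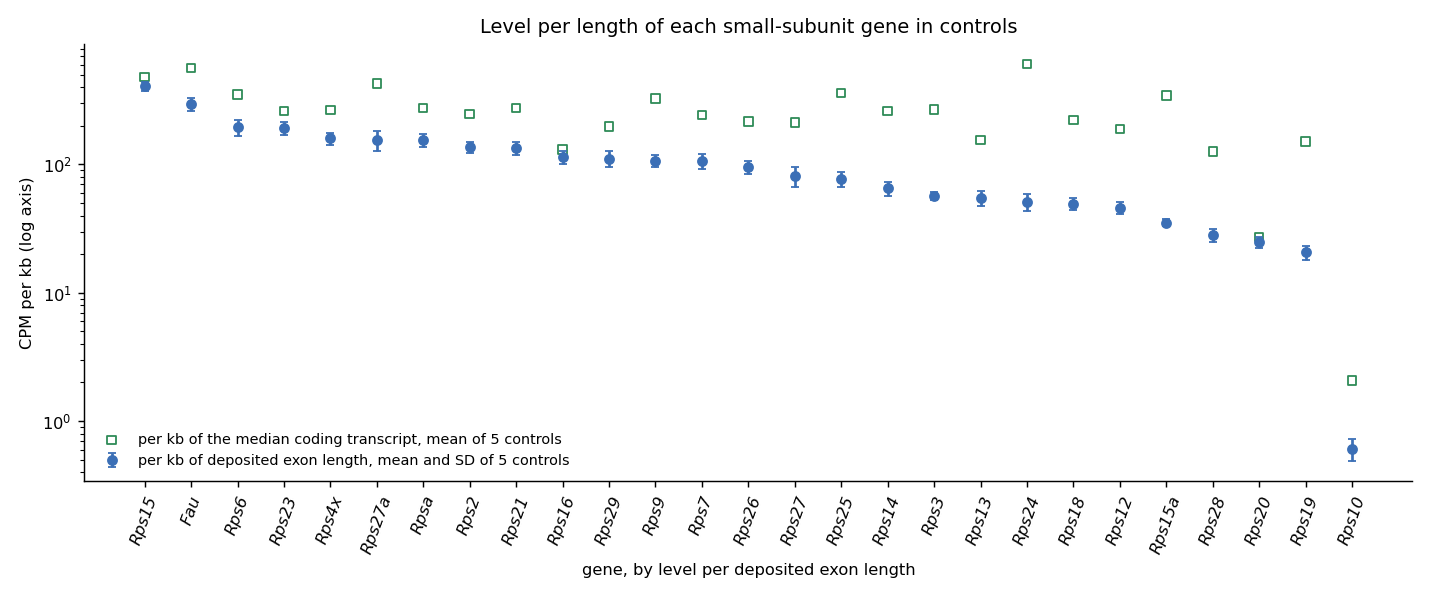
Level of 27 of the 31 genes in the 5 control libraries, in CPM per kb on a log axis, with genes ordered by level per deposited exon length. Filled circles and bars are the mean and SD per kb of deposited exon length and open squares the mean per kb of the median coding transcript; Rps15 leads at 409 CPM per kb, Rps10 is lowest by both lengths, and Rps24 moves most.

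Restraint was compared with control to ask what differs in the ribosome-associated RNA of these libraries, which also held RNA of other cells, after acute stress. Most small-subunit genes had lower mean levels after restraint: 27 of the 31 log2 fold changes were negative, against 50.4% of 18440 genes tested, with a median of -0.39 against -0.00 over all genes. In the quasi-likelihood test of edgeR, with Benjamini-Hochberg adjustment over all genes, no single gene had an adjusted p under 0.05, neither lower (background 0.0163%) nor higher (background 0.00542%), and of those of the 31 genes named here Rps13 had the smallest adjusted p, 0.0750. At an unadjusted p under 0.05, 21 of the 31 were lower, where 6.04% of all genes were, and none was higher, where 5.64% were. At an adjusted p under 0.1 there were 6, Rps13, Rps19 and Rps16 among them, against 0.266% of all genes. DESeq2, another count model run as an alternative, put 13 of the 31 lower at an adjusted p under 0.05 (background 1.24%) and none higher (background 0.787%). For 5 genes, Rps13, Rps16 and Rps19 among them, every restraint library lay below every control library (background 1.36%), and for none did every restraint library lie above (background 1.25%). In 16 of the 31 genes each of the 5 restraint libraries was below the control median, and the share of all genes with this pattern was not computed. A property of the libraries also separated the groups: among counts of 1 to 30 over all genes, 76.8 to 79.8% were even numbers in controls and 80 to 84.8% after restraint. Its part in these values was not tested.

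The number of calls turned on the test and on single libraries. Without restraint 5 the edgeR test called 9 of the 31 lower (0.443% of all genes tested), without restraint 2 it called 4 (0.0799%) and without control 5 it called 1 (0.0851%), and without any other single library it called 0. DESeq2 called 10 without restraint 1 (1.05% of all genes), 9 without restraint 4 (0.809%) and 8 without control 3 (0.475%).

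**Figure D2:**
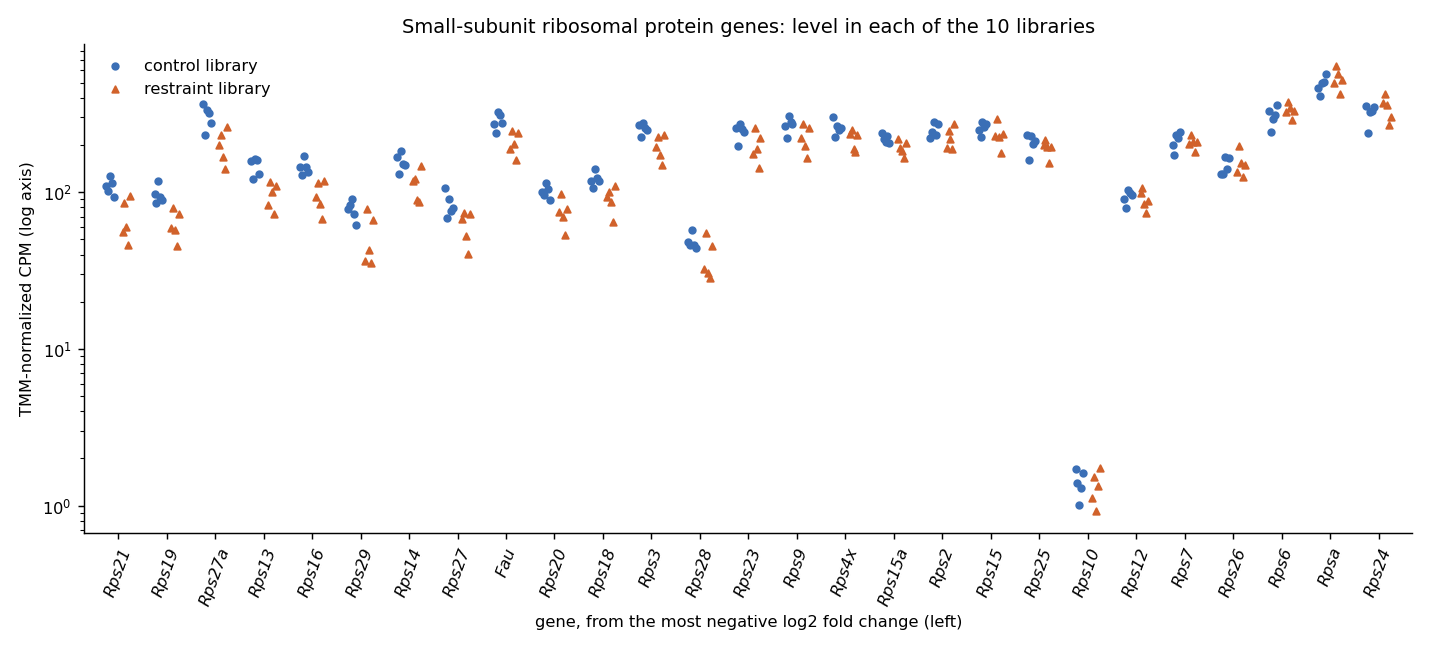
TMM-normalized CPM (log axis) of 27 of the 31 genes in each of the 10 libraries, with genes ordered from the most negative log2 fold change on the left; circles are control and triangles restraint libraries. The groups do not overlap in Rps13, Rps16 and Rps19, overlap in the other genes shown, and Rps10 lies far below the rest at 0.928 to 1.73 CPM.

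Among the 14 genes for proteins of the head, all 14 log2 fold changes were negative, with a median of -0.42. At an unadjusted p under 0.05, 10 of the 14 were lower, against 6.04% of all genes. Rps19, the first gene found mutated in Diamond-Blackfan anaemia (7:24583796-24589231, plus strand, coordinates as deposited), had 96.8, 85.8, 117, 92.8 and 89.8 CPM in controls 1 to 5. After restraint it had 59.0, 79.3, 57.1, 45.5 and 72.5 CPM. The highest restraint library lay below the lowest control, and the log2 fold change was -0.62 ± 0.13 (SE, edgeR adjusted p = 0.0807).

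Rps16, whose tail reaches towards the transfer RNA in the P site (7:28050077-28052580, plus strand), had 144, 129, 172, 144 and 134 CPM in controls and 93.9, 115, 84.0, 67.5 and 119 CPM after restraint. Its groups did not overlap, and the means were 144.5 ± 16.5 and 95.8 ± 21.4 CPM (SD, n = 5 each). The log2 fold change was -0.59 ± 0.13 (edgeR adjusted p = 0.0914).

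Rps27a encodes a protein of the head fused to ubiquitin, so that its mRNA yields both. It had 366, 230.3, 337, 318 and 278 CPM in controls and 202, 230.3, 169, 141 and 259.7 CPM after restraint. Control 2 was level with restraint 2 and below restraint 5, and the log2 fold change was -0.61 ± 0.15 (edgeR adjusted p = 0.130). Rps29, a small zinc-binding protein, had 78.0, 82.4, 90.6, 72.5 and 61.5 CPM in controls and 36.2, 78.0, 42.7, 35.4 and 67.0 CPM after restraint. Restraint 1, 3 and 4 were far below the controls while restraint 2 and 5 lay among them, and the log2 fold change was -0.57 ± 0.19 (edgeR adjusted p = 0.235).

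Rps20, a protein that receives ubiquitin on collided ribosomes, had a log2 fold change of -0.44 ± 0.12. Rps18, at a bridge to the large subunit, had -0.41 ± 0.12, and Rps3, at the channel where mRNA enters, -0.39 ± 0.11. All 3 were lower at an unadjusted p under 0.05, with edgeR adjusted p-values of 0.174, 0.181 and 0.165. Rps28, at the exit channel, had 48.3 ± 5.36 CPM in controls and 38.3 ± 11.4 CPM after restraint, with restraint 2 at 54.8 CPM above 4 of the controls. A further 4 head genes lay near 0: Rps15 at -0.15 ± 0.11, Rps25, needed by several viral internal ribosome entry sites, at -0.12 ± 0.11, Rps10 at -0.08 ± 0.26 and Rps12, in the beak of the head, at -0.05 ± 0.10.

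Among the 17 genes for proteins of the body, 13 log2 fold changes were negative, with a median of -0.28, and 11 of the 17 were lower at an unadjusted p under 0.05, against 6.04% of all genes. The difference between head and body was not tested. Rps13, at a bridge to the large subunit (7:115930740-115933430, minus strand), had 158, 122, 164, 161 and 132 CPM in controls and 83.3, 117, 100.4, 72.9 and 109.7 CPM after restraint. The groups were apart, by the narrow gap between control 2 and restraint 2. Its log2 fold change was -0.61 ± 0.12 (edgeR adjusted p = 0.0750).

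Rps21, which encodes a small protein beside the one from Rpsa (2:179899170-179900238, plus strand), had the most negative value of the 31. It had 109, 102, 128, 114 and 92.9 CPM in controls and 55.8, 84.9, 60.5, 46.1 and 94.1 CPM after restraint. Restraint 1, 3 and 4 were clearly lower, while restraint 5 was above the lowest control. The log2 fold change was -0.67 ± 0.16 (edgeR adjusted p = 0.118).

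Fau, which encodes a body protein fused to the ubiquitin-like protein FUBI, had 272, 240.3, 325, 310.4 and 277 CPM in controls and 188, 248, 204, 160.3 and 238 CPM after restraint. Only restraint 2 came above a control library, and the log2 fold change was -0.45 ± 0.11 (edgeR adjusted p = 0.137). Rps14, a protein of the platform, had -0.48 ± 0.13 and Rps27, a zinc-binding protein, -0.46 ± 0.15. Rps23 of the decoding centre had -0.31 ± 0.13, Rps9, which bears on decoding accuracy, -0.28 ± 0.12, the X-linked Rps4x -0.26 ± 0.10 and Rps15a, an rRNA-binding protein, -0.19 ± 0.08. These 6 genes were lower at an unadjusted p under 0.05, with edgeR adjusted p-values from 0.174 to 0.382. Rps2, at the entry channel, had -0.16 ± 0.10, and Rps7, which binds Mdm2 when free of the ribosome, -0.05 ± 0.09.

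Only 4 genes, all of the body, had positive values, and none reached an unadjusted p of 0.05. Rps6, the substrate of S6 kinases, had 331, 243.5, 294, 311 and 363 CPM in controls and 328, 375, 347, 287 and 332 CPM after restraint. Its libraries were mixed between the groups, and the log2 fold change was 0.11 ± 0.10 (edgeR adjusted p = 0.725). Rpsa, which is also studied as a laminin receptor, had 0.12 ± 0.10, Rps24, another Diamond-Blackfan anaemia gene, 0.12 ± 0.12, and Rps26, which touches mRNA ahead of the start codon, 0.05 ± 0.12. Rpsa and Rps6 were above the control median in 4 of 5 restraint libraries.

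**Figure D3:**
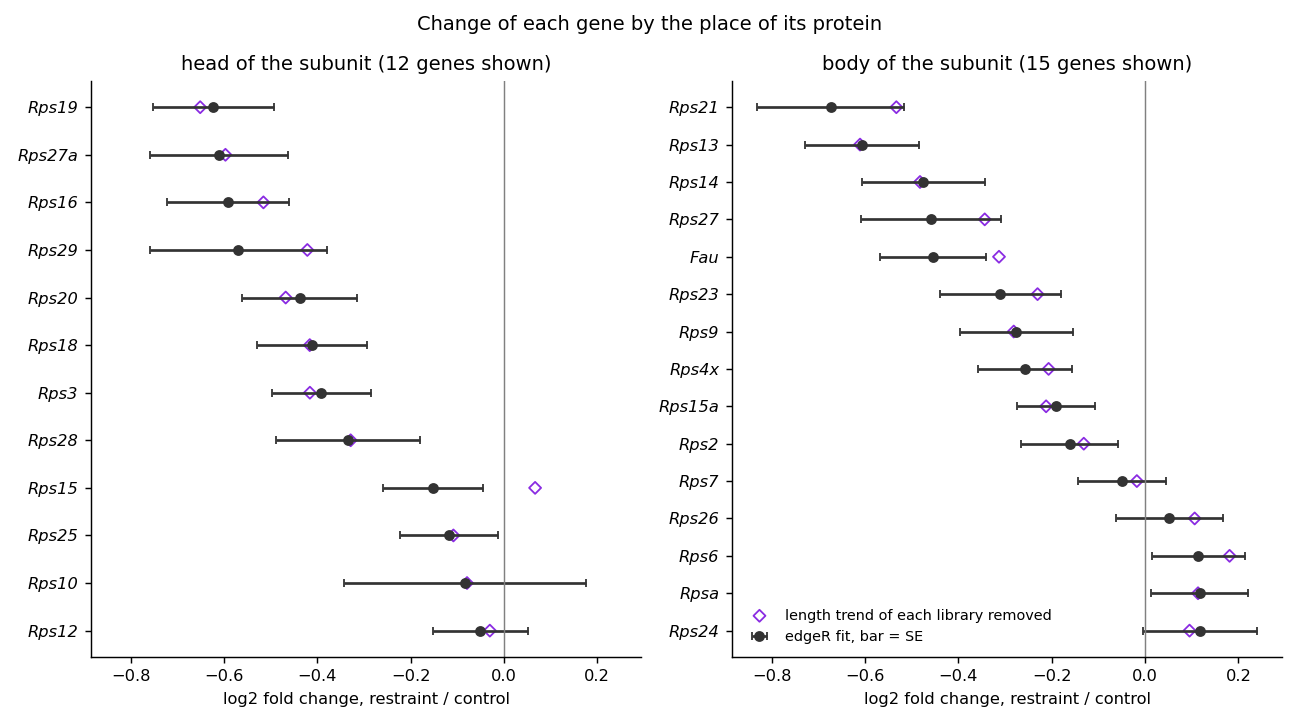
Log2 fold change of restraint over control for 12 head and 15 body genes (filled circles, bars are the SE of the edgeR fit) and the same after the trend of each library on exon length was removed (open diamonds). All head genes shown lie below 0 in the edgeR fit, 4 body genes lie above it, and Rps15 crosses 0 when the trend is removed.

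By conservation, the 15 proteins shared by all domains of life had a median log2 fold change of -0.41, with 12 of 15 lower at an unadjusted p under 0.05. The other 16, found in eukaryotes or in eukaryotes and archaea, had -0.30, with 9 of 16 lower. Over all genes 6.04% were lower at that threshold, and the difference between the classes was not tested.

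The position of the genes was looked at after their values were seen. Chromosome 7 held 9 of the 31 genes, among them all 5 whose groups did not overlap, and all 9 had negative values, with a median of -0.52. The other 22 had a median of -0.28. The 1415 tested genes of chromosome 7 had a median of -0.01, and the 9 are spread over the chromosome from Rps9 at 3706992 to Rps15a at 117703595 (deposited coordinates). This difference was not tested.

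The libraries were not equally low. The mean log2 CPM of the 31 genes was 7.27, 7.03, 7.35, 7.23 and 7.20 in controls 1 to 5 and 6.83, 7.16, 6.79, 6.54 and 7.08 in restraint 1 to 5. Restraint 2 and 5 lay above control 2, the lowest control, and restraint 4 was the lowest of all. As a share of all counts the genes took 0.594 ± 0.054% (SD, n = 5) of control libraries and 0.499 ± 0.0713% (SD, n = 5) of restraint libraries. Of the 31 genes, 20, 12, 24, 26 and 8 were below their lowest control in restraint 1 to 5, where 24.2, 22, 22, 21.8 and 16.4% of all genes tested were.

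The libraries also differed in how level related to exon length. The slope of log2 CPM on log2 exon length, taken over 8441 genes, was -0.00, 0.067, -0.068, -0.026 and -0.027 in controls 1 to 5 and 0.066, -0.067, 0.0093, 0.092 and -0.047 in restraint 1 to 5. Control 2 and restraint 1 and 4, with the steepest positive slopes, were low for the 31 genes, and restraint 2 and 5, with negative slopes, were the highest restraint libraries. Restraint 3, with a slope of 0.0093, had a mean of 6.79, below restraint 1 at 6.83. The slopes left out the 31 genes and the other listed ribosomal protein genes. The trend removed next was instead a smoothed curve per library, fitted without leaving these genes out, so it partly rests on them. With the trend of each library removed, the mean log2 CPM of the 31 genes was 7.26, 7.10, 7.24, 7.18 and 7.14 in controls and 6.95, 7.06, 6.80, 6.71 and 7.03 after restraint. The groups then did not overlap. At an unadjusted p under 0.05, 21 of the 31 were lower on the corrected values (background 6.75%), and 9 were lower at an adjusted p under 0.05 (limma on the corrected values, background 0.315%), among them Fau, Rps13, Rps16, Rps19, Rps21 and Rps27a. That number was 9 without restraint 1 (0.309% of all genes), 4 without restraint 4 (0.117%) and 0 without control 3 (0.0213%).

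**Figure D4:**
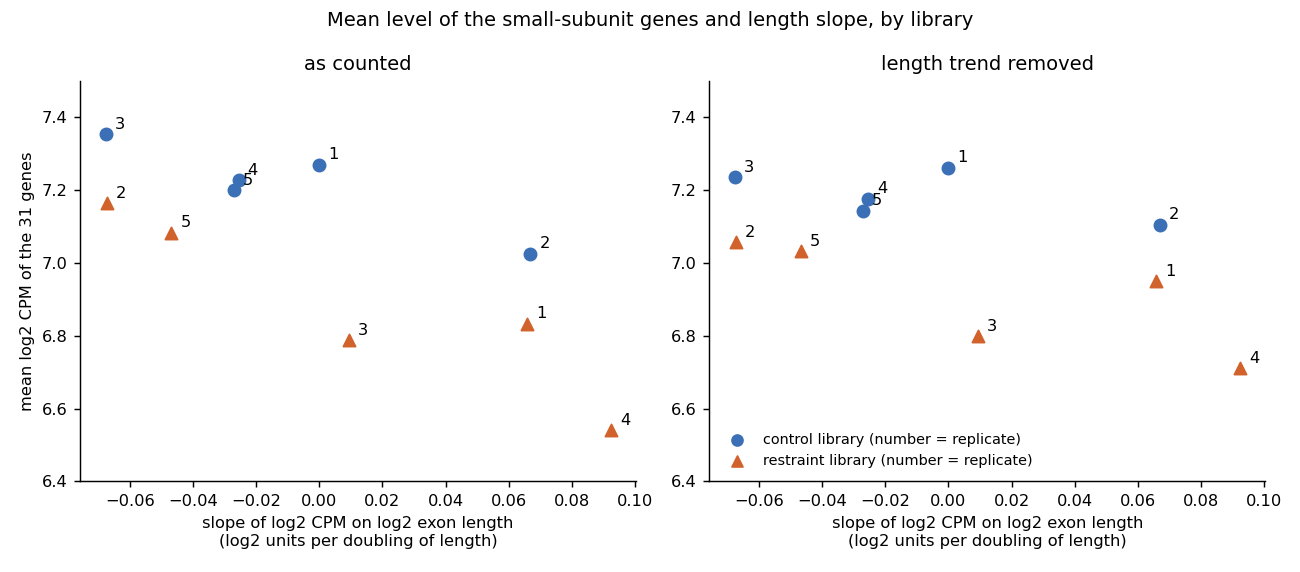
Mean log2 CPM of the 31 genes in each library (vertical axis) against the slope of log2 CPM on log2 exon length (horizontal axis, log2 units per doubling of length), as counted (left) and with the length trend removed (right); circles are controls, triangles restraint, and numbers the replicates. As counted, restraint 2 and 5 lie above control 2, and with the trend removed the 5 restraint means (6.71 to 7.06) lie below the 5 control means (7.10 to 7.26).

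Within the groups the genes varied together from library to library. After each group's mean was taken off, the median Pearson r over the 465 pairs of genes was 0.73 across the 10 libraries, and 459 pairs were above 0. These pairs share libraries, depth and short lengths, and the r is a description. With the mean of the others, 20 of the 31 had an r of 0.8 or more, where 5.94% of 8517 other genes did with the mean of the 31. The lowest were Rps10 at 0.21 and Rps15a at 0.42. With the length trend removed the median r over pairs was 0.437, and 9 genes had an r of 0.8 or more with the mean of the others.

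Other genes of the small subunit gave mixed values. Rack1, a scaffold on the head, had a control mean of 164 ± 9.33 CPM and a restraint mean of 132 ± 14.6 CPM (SD over 5 libraries), a log2 fold change of -0.31 ± 0.08 (edgeR adjusted p = 0.162). Rps3a1 had 0.02 ± 0.11 on the same scale. The paralogues Rps27l and Rps4l, the latter annotated as a transcribed pseudogene, had -0.14 ± 0.17 and 0.04 ± 0.11. Rps27rt, with a mean under 2 CPM in both groups, had -0.61 ± 0.32. In Rps27rt, controls 1 and 3 had 2.02 and 3.24 CPM. Its other controls, at 1.08 to 1.38 CPM, lay within the restraint range of 0.746 to 1.56 CPM. With Rps3a1 and Rack1 added, the median of the 33 genes was -0.33.

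Genes around the small subunit were described from lists of known function. Of 46 large-subunit protein genes, 39 had negative values with a median of -0.21. At an unadjusted p under 0.05, 23 were lower and none was higher, where 6.04% and 5.64% of all genes were. The smallest p-values there were those of Rplp1, a stalk protein, at -0.82 ± 0.16, Rpl9 at -0.62 ± 0.13 and Rpl36 at -0.49 ± 0.11. Of 47 assembly factors of the small subunit, 3 were lower and 8 higher at that threshold, with a median of 0.00. Nol10, a nucleolar protein of early assembly, had 0.41 ± 0.09, and Ltv1, which acts in late assembly, 0.30 ± 0.09, while Imp3, a nucleolar partner of the U3 RNA, had -0.56 ± 0.17.

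Lists of translation control stood nearer to 0. The 30 initiation factors that act on the small subunit had a median of -0.10 with 3 lower, and the 21 other genes with TOP mRNAs, Rack1 among them, had -0.05 with 3 lower and 1 higher. The 24 genes of TOR and S6 kinase signalling had -0.07 with 2 lower, and the 15 genes for ubiquitin marking and quality control of the small subunit had 0.08 with 3 higher. The 33 proteins of the small subunit of the mitochondrial ribosome had -0.06 with 4 lower and 1 higher. These counts are at an unadjusted p under 0.05 (edgeR), where 6.04% of all genes were lower and 5.64% higher. No gene of these lists passed an adjusted p of 0.05 (edgeR). The lists share the 10 libraries, and differences between their medians were not tested.

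Some counts are less certain than others. Pseudogenes named after the gene existed for 24 of the 31 genes, 112 in all, and how reads were divided between a gene and its copies was not tested. In 13 genes some exon bases are shared with another annotated gene, and reads were counted without strand. Rps25 shares 462 bases with Trappc4 and Rps18 156 bases with Vps52, both on the opposite strand and well counted. Rps10 shares 475 of 2311 exon bases with the readthrough gene RPS10-NUDT3 on its own strand, which is listed at 0 counts, and 189 bases with Gm15420. Its median coding transcript is shorter, at 678 bases, and how reads on shared bases were assigned was not examined. Pseudogenes named after Rps10 held 803 counts over all libraries, against 937 for Rps10. Whether the shared bases or the pseudogenes set the low count of Rps10 was not tested. Over the 31 genes Pearson's r between log2 fold change and mean control CPM was 0.43, against 0.25 with exon length, 0.21 with the number of pseudogenes and -0.16 with GC content, as descriptions across genes, which are not independent.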

How the data were processed

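Ribosome-associated RNA of 5 control and 5 restraint libraries was analysed, grouped by the sample labels. The deposited table holds whole-number counts per gene, made by the authors with featureCounts 2.0.3 over exons, per the file headers, which name GENCODE M30 as annotation. Paired-end input without pair counting is recorded there, so both mates of a read pair were counted, and no strand option is named. FastQC, Trimmomatic and STAR were used, and mm10 is named as the build, per the submitters' processing notes. GENCODE M30 annotates GRCm39, and gene coordinates are printed as deposited. Deposited exon lengths were used for levels per kb. Symbols came from GENCODE M21 by identifier for 52073 of 56691 genes.

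Genes were filtered with filterByExpr (count minimum 10, total minimum 15), which left 18440, normalized by TMM and tested with edgeR 4.0.16 (glmQLFit and glmQLFTest) in R 4.3.3, with a single term for the group. P-values were adjusted by Benjamini-Hochberg over all 18440 genes, with a threshold of 0.05. The scripts were first tested on simulated data. CPM and log2 CPM (prior count 2) were computed from the counts. Length and GC trends were removed per library by lowess (span 0.3) fitted to genes whose mean log2 CPM exceeded 4, and the corrected values were tested with limma 3.58.1. Alternatives were RLE or library-size normalization, filters of at least 1 count or of a CPM of 1 in 5 libraries, limma-voom (plain, or with quality weights), DESeq2 1.42.0, edgeR's robust option, halved counts, a replicate block and leaving out each library.

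The 31 genes, the gene lists and the tests were chosen with earlier results of these data known. Some of the 31 genes are counted in totals and medians but not reported singly here. Genes whose change is given singly are the rest of the 31 and all genes of the list of other small-subunit genes and paralogues. Of each other list they are up to 3 genes with the smallest p. Th and Slc6a3 are named only as examples of markers. DESeq2 and the length removal without restraint 1, restraint 4 or control 3, limma on uncorrected log2 CPM and the coding-transcript length were added after the data were seen, as were the promoter motifs, the grouping by chromosome and the check of shared exon bases. Standard errors cover the spread between libraries. Rps14 is among the 31 genes, and its promoter window was not used here.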

Additional observations from a re-analysis of the deposited data

Results flagged for a closer look

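Among 74 sets of 5 values (each gene, and measures of each library, in each group), 2 held a library far from the other 4 by Dixon's ratio, where chance gives about 1 in 20. For Rps24, control 2 had 239.3 CPM, below the other controls at 324.9 to 355.5 CPM, and without this library the Rps24 log2 fold change was 0.04, against 0.12 with it. On the first principal component, restraint 1 had a score of 92.06, against -15.8 to 4.076 in the other restraint libraries. Without restraint 1 the median log2 fold change of the 31 genes was -0.32, 18 genes were lower at an unadjusted p under 0.05 and 0 passed an adjusted p of 0.05 (edgeR). The share of all genes at that unadjusted threshold was not computed for this fit.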

How the results depend on the processing

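Across 30 alternatives the median log2 fold change of the 31 genes lay between -0.46 and -0.27, and 26 of the genes never changed sign. At an adjusted p under 0.05 the planned edgeR test called 0 genes lower; the share of all genes called lower stands in brackets after each count. DESeq2 called 13 (1.24%), or 10 without restraint 1 (1.05%), 9 without restraint 4 (0.809%) and 8 without control 3 (0.475%). Removal of the length trend called 9 (0.315%), or 9 without restraint 1 (0.309%), 4 without restraint 4 (0.117%) and 0 without control 3 (0.0213%). The filter of at least 1 count called 16 (0.612%), quality weights in limma-voom 9 (0.358%), removal of the GC trend 3 (0.144%), library size only 1 (0.0651%) and limma on log2 CPM 1 (0.0976%). RLE, a CPM filter, limma-voom, robust estimation and halved counts called 0, and leaving out 1 library called 0 to 9. No alternative called a gene higher at that threshold; at an unadjusted p under 0.05, 1 gene, Rps6, was higher with the length trend removed, also without restraint 4. Genes whose restraint libraries all lay below the controls numbered 8 with the length trend removed (1.5% of all genes) and 5 to 12 when 1 library was left out, with 12 without control 2 (2.38%) and 11 without restraint 5 (3.3%); fewer libraries make such separation more frequent, and over these 10 fits 1.65 to 3.3% of all genes showed it. The median level moved to 260.5 CPM per kb with coding-transcript lengths. The cause of these differences was not tested. With the length trend removed, the Rps15 log2 fold change was positive (0.0668, 0.0668 with the replicate block, 0.0385 without control 3, 0.0254 without restraint 1 and 0.0729 without restraint 4). Without restraint 4 the Rps12 log2 fold change was positive (0.0142 in DESeq2, 0.0068 with the length trend removed). Over the 10 edgeR fits that left out 1 library, with no trend removed, it ranged from -0.1253 to 0.0181, the Rps10 log2 fold change from -0.2037 to 0.0132 (0.0055 without control 1), the Rps26 log2 fold change from -0.0676 to 0.1203 and the Rps7 log2 fold change from -0.1105 to 0.0022.

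No pairing by replicate number was seen: over genes, deviations from the group means of same-numbered libraries correlated at 0.26, -0.45, -0.20, -0.39 and -0.10, and 1 of 5 controls had its own number as best partner. With 5 libraries per group these values cannot show that the samples were unpaired. With the replicate block 0 genes were called, 20 were lower at an unadjusted p under 0.05 and the smallest adjusted p among the 31 was 0.298 (edgeR). The share of all genes at that unadjusted threshold was not computed for this fit. With the length trend also removed, 0 were called. The fewest counts stood behind Rps10, with 51 to 148 counts per library.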
